A study of Mus musculus with 2 samples.

Results

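The miR-200 family is a set of 5 microRNA genes, Mir200a, Mir200b, Mir429, Mir200c and Mir141, described here in the mouse adrenal gland. The members were taken by their GENCODE M21 symbols and Ensembl identifiers and make up 5 of the 2202 microRNA genes listed in the files. The series holds 1 group, adrenal glands of male B6CASTF1/J mice at an age of 36 days, with 2 microRNA-seq libraries that the labels number as biological replicates 2 and 1. B6CASTF1/J mice are the first-generation cross of C57BL/6J with CAST/EiJ, and no treatment or engineered allele is named. The animals carry separate numbers but 1 donor record, the RNA was restricted to sizes below 30 nucleotides, and whether glands were pooled is not given in the sources used here.

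MicroRNAs are short RNAs cut from hairpin precursors, and bases 2 to 8 of the mature strand, the seed, pair with target messenger RNAs to lower their output. The miR-200 family is known from epithelial cells, in which it represses the transcription factors Zeb1 and Zeb2 and so keeps the adhesion protein E-cadherin expressed. Zeb factors in turn repress the miR-200 genes, so that epithelial and mesenchymal cells hold opposite states of this loop. Hormone-producing cells of the adrenal cortex derive from mesoderm and those of the medulla from the neural crest, and neither is a classical epithelium lining a surface. Target messenger RNAs were not measured in these libraries.

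The 3p mature strands, which carry the seed that names the family, fall into a pair of seed groups that differ in 1 seed base and cut across the genomic clusters. They are shown 5′ to 3′ from RefSeq (GRCm38.p6), with the seed in capitals.

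miR-200b-3p (chromosome 4): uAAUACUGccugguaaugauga

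miR-429-3p (chromosome 4): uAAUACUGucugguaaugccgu

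miR-200c-3p (chromosome 6): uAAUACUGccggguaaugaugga

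miR-200a-3p (chromosome 4): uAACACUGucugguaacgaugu

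miR-141-3p (chromosome 6): uAACACUGucugguaaagaugg

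In each seed group 1 pair of 3p strands is the closest in the family. Compared base by base from the 5′ end, miR-200b-3p and miR-200c-3p share 20 of 22 bases and differ by U11G and A22G. The pair miR-200a-3p and miR-141-3p also shares 20 of 22 bases, with C17A and U22G, where positions count from 1 at the 5′ end and the strand named first gives the first base. All other pairs share 17 or 18 of 22 bases, including those of miR-429-3p with miR-200b-3p and miR-200c-3p, whose seed it carries. In the RefSeq table the seed of miR-200b, miR-200c and miR-429 occurs in 3 mature mouse sequences and that of miR-200a and miR-141 in 2, all of them members. The longest run of letters shared by any 2 member hairpins was 17 bases, between Mir200a and Mir141, and the longest run shared with a hairpin outside the family was 11 bases. Reads placed at several sites in the genome are outside the gene counts, and how many of them came from this family was not tested.

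All 5 genes lie on minus strands, in 2 clusters (mm10, counted from 1). The chromosome 4 cluster holds Mir200b (ENSMUSG00000065549.3, 156055681 to 156055750), Mir200a (ENSMUSG00000065400.1, 156054896 to 156054985) and Mir429 (ENSMUSG00000065427.1, 156053905 to 156053987), in 1846 bases. Mir200b and Mir200a lie in an intron of the noncoding transcript Gm13648 and Mir429 lies in one of its exons. All 3 hairpins also lie in introns of 2 Ttll10 transcripts on the same strand. The chromosome 6 cluster holds Mir200c (ENSMUSG00000065462.3, 124718322 to 124718390) and Mir141 (ENSMUSG00000065474.1, 124717914 to 124717985), in 477 bases. Both hairpins lie in the intron of the noncoding transcript Gm15884, and 31 bases of Mir141 overlap the unverified transcript Gm29008. No annotated gene on the opposite strand overlaps a member. The counts in the antisense column were 0 for every member in replicate 2, and 0 in replicate 1 except for 2 counts of Mir200a.

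**Figure D1:**
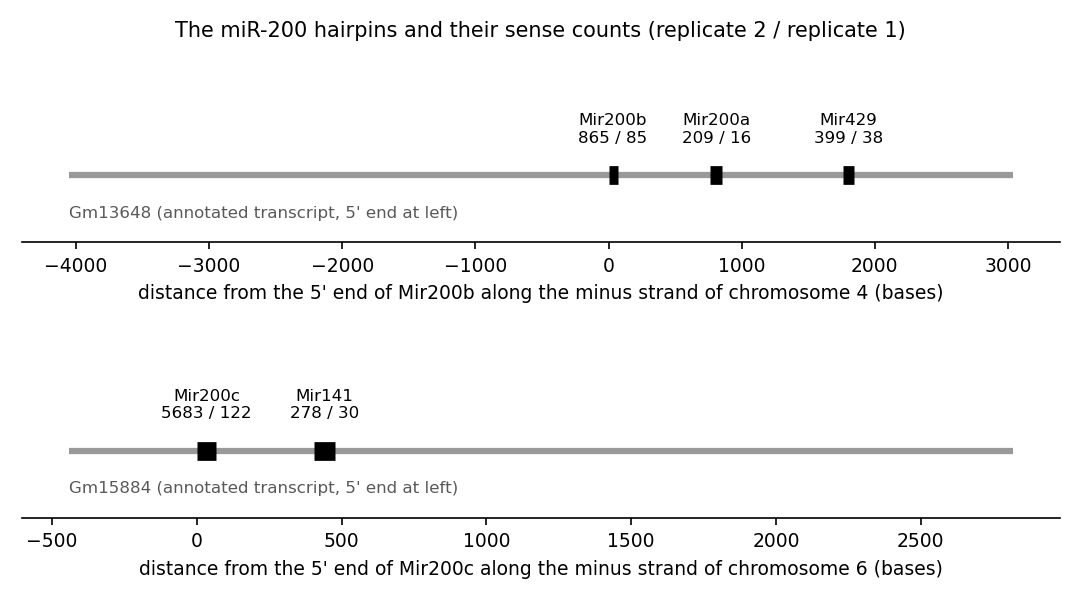
Map of the chromosome 4 cluster (top) and the chromosome 6 cluster (bottom), with distance in bases from the 5′ end of the leading hairpin on the x axis. Black boxes are hairpins with their sense counts in replicates 2 and 1, and the grey bar is the annotated noncoding transcript. Mir200c and Mir141 lie closest together yet hold 5683 and 278 counts in replicate 2.

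The family was a minor part of the microRNA profile, and nearly all of its reads came from 1 of the 2 libraries. Levels are deposited sense counts scaled to a total of 1000000 over all gene rows (CPM), with no length correction, since the 3p strands are 22 or 23 bases long. Together the 5 genes held 3576 CPM in replicate 2 (7434 counts, exact Clopper-Pearson 95% interval 3495 to 3658) and 64.7 CPM in replicate 1 (291 counts, 57.5 to 72.6). That is 0.358% and 0.00647% of all gene counts in replicates 2 and 1, a mean of 1820.4 ± 2483 CPM (SD, n = 2). The SD is larger than the mean, so the mean describes neither library. Replicate 2 had 2078824 sense gene counts, or 20.1% of its reads, and 51.9% of its reads were unmapped. Replicate 1 had 4494857 sense gene counts, or 36.6% of its reads, and 26.4% were unmapped. The family was therefore counted more often in the shallower library. The effect of these differences in mapping on the family was not tested. All intervals given here take counting as the only error. The counts do not separate PCR copies from original molecules, so the intervals may be too narrow even for counting error. In whole tissue, fewer cells that make a microRNA and less of it per cell cannot be told apart.

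Mir200c, the member of the larger seed group on chromosome 6, was the highest gene of the family in both libraries. It had 5683 counts and 2734 CPM in replicate 2 (2663 to 2806), and 122 counts and 27.1 CPM in replicate 1 (22.5 to 32.4). It ranked 49 of the 624 genes detected in replicate 2, and 247 of the 696 detected in replicate 1. Mir141, its neighbour 336 bases downstream, had 278 counts and 134 CPM in replicate 2 (118 to 150.4), and 30 counts and 6.67 CPM in replicate 1 (4.50 to 9.53).

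On chromosome 4 all 3 members were likewise present in both libraries and higher in replicate 2. Mir200b, the hairpin at the 5′ end, had 865 counts and 416 CPM in replicate 2 (389 to 445), and 85 counts and 18.9 CPM in replicate 1 (15.1 to 23.4). Mir429, which shares its seed, had 399 counts and 192 CPM in replicate 2 (174 to 212), and 38 counts and 8.45 CPM in replicate 1 (5.98 to 11.6). Mir200a, which shares its seed with Mir141 on chromosome 6, had 209 counts and 100.5 CPM in replicate 2 (87.4 to 115), and 16 counts and 3.56 CPM in replicate 1 (2.03 to 5.78). Every member had more than the 3 counts that a reading of 0 allows, a floor that corresponds to 1.44 CPM in replicate 2 but 0.667 CPM in replicate 1.

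The order of the members was the same in both libraries, from Mir200c through Mir200b, Mir429 and Mir141 to Mir200a. In replicate 2 no 2 of the 5 intervals overlapped. In replicate 1 the intervals of Mir200c and Mir200b overlapped, as did those of Mir429 and Mir141 and those of Mir141 and Mir200a. Compared directly in replicate 1, Mir200c exceeded Mir200b 1.44-fold (1.08 to 1.92), so their order was resolved beyond counting error. Mir200a stood at 0.533 of Mir141 there (0.272 to 1.01), an order that was not resolved. Mir429 and Mir141 were not compared directly. The intervals of Mir200b and Mir429 did not overlap in either library. As means over the libraries, with SD and n = 2, Mir200c stood at 1380.5 ± 1914 CPM, Mir200b at 218 ± 281 CPM, Mir429 at 100.2 ± 130 CPM, Mir141 at 70.2 ± 89.8 CPM and Mir200a at 52.0 ± 68.6 CPM. Each mean exceeded the next by less than its own SD. These SDs hold the difference between the libraries that all members share, so they do not measure how members differ within a library.

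**Figure D2:**
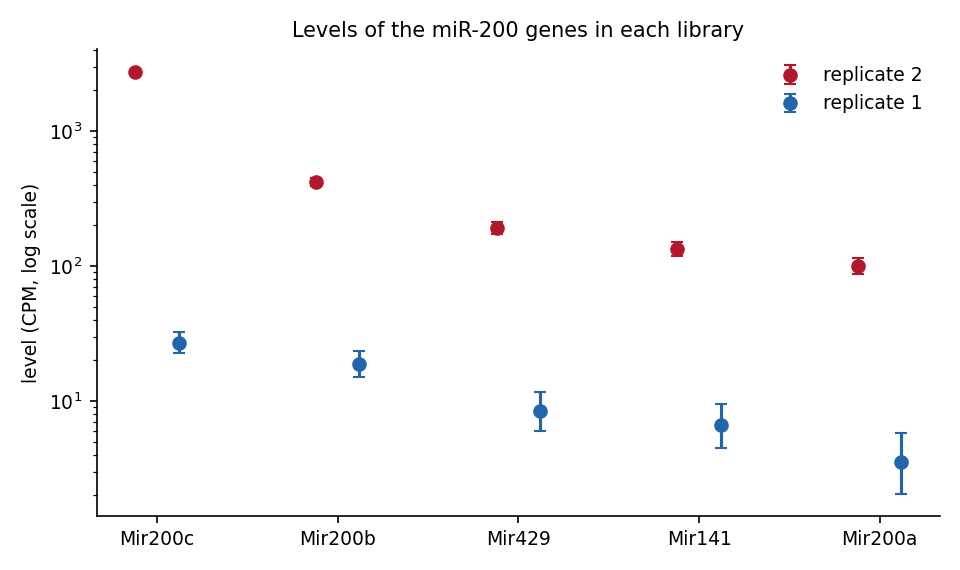
Level of each member in CPM (log scale) in replicate 2 (red) and replicate 1 (blue), with exact 95% counting intervals. Every member is higher in replicate 2, and the gap is widest for Mir200c, at 2734 and 27.1 CPM in replicates 2 and 1.

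By mean level the members sat among genes whose libraries were closer to each other. Mir200c lay between Mir107, at 2285 and 484 CPM in replicates 2 and 1, and Mir15a, at 1282 and 1376 CPM. Mir200b lay between the hypoxia-induced Mir210, at 254 and 186 CPM, and Mir467d, at 184 and 246 CPM. Mir429 lay between Mir1247, at 131 and 75.6 CPM, and Mir1249, at 126 and 73.0 CPM. Mir141 lay between Mir34b, at 81.3 and 59.2 CPM, and Mir181a-1, at 46.7 and 93.4 CPM, and Mir200a between Mir331, at 71.2 and 33.8 CPM, and Mir383, at 64.9 and 38.0 CPM. Each of these 10 genes is closer between the libraries than the member beside it. These neighbours were picked for their mean, so their closeness in mean level is no result. Their smaller difference between the libraries is none either, since the members have some of the largest ratios of all genes.

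All 5 members were more than 4-fold higher in replicate 2 than in replicate 1. This compares 2 libraries of 1 group, so the difference has no replicate check and no p-value is given. Ratios are replicate 2 over replicate 1 after TMM scaling, which assumes that most genes do not differ, with a counting interval from the exact conditional binomial distribution. Of the 368 genes with at least 20 counts over both libraries, which include all 5 members, 10.3% were past 4-fold in either direction and 6.52% were past it toward replicate 2. The median log2 ratio was 4.39 over the 5 members, against 0.00 over the 368 genes, whose quartiles were -0.56 and 0.76. Since the family was proposed with earlier results of these libraries known, that contrast is a description.

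Mir200c had a log2 ratio of 6.54, a 93.0-fold difference with a counting interval of 77.7 to 112. Mir200a had a log2 ratio of 4.71, or 26.1-fold (15.7 to 46.5). Mir429 had a log2 ratio of 4.39 (3.91 to 4.91 on the log2 scale), and Mir200b had 4.34, or 20.3-fold (16.2 to 25.7). Mir141 had 4.21, or 18.5-fold (12.7 to 27.9). The intervals of Mir200a, Mir429, Mir200b and Mir141 all overlap, across both chromosomes and both seed groups, and that of Mir200c lies above them all. By size of the ratio Mir200a, Mir429, Mir200b and Mir141 held ranks 7 to 10 of 368. Mir200c held rank 6 with 0.5 counts added to both libraries for genes at 0 in replicate 1, and rank 3 with those genes at their bound against 3 counts.

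**Figure D3:**
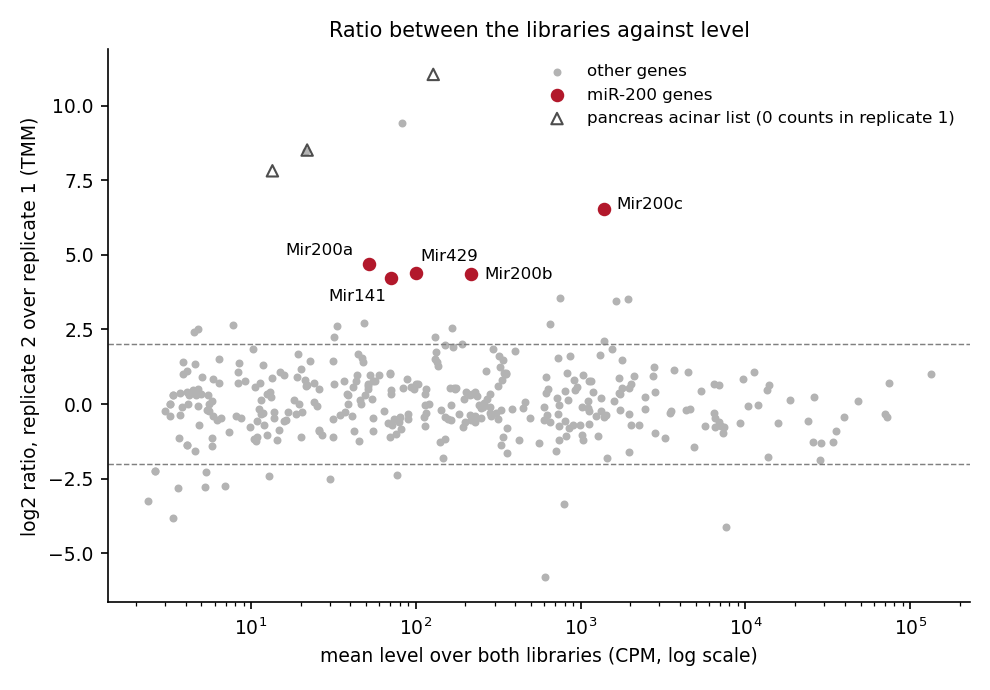
Log2 ratio of replicate 2 over replicate 1 (TMM) against mean level in CPM (log scale) for the 368 genes with at least 20 counts, with dashed lines at 4-fold. The 5 miR-200 genes (red) have log2 ratios from 4.21 to 6.54, below 2 grey points, Mir802 and Mir6969, and below the 3 pancreas acinar genes (triangles). Mir6969 and the triangles had 0 counts in replicate 1, so their height depends on the 0.5 counts added to both libraries.

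The summed family differed by 51.0-fold (45.4 to 57.6), a log2 ratio of 5.67. Without Mir200c the other 4 genes together held 842 CPM in replicate 2 and 37.6 CPM in replicate 1, a 20.7-fold difference (17.7 to 24.4). The chromosome 4 cluster held 709 CPM in replicate 2 and 30.9 CPM in replicate 1, a 21.2-fold difference (17.8 to 25.4). The chromosome 6 cluster held 2867 CPM in replicate 2 and 33.8 CPM in replicate 1, a 78.3-fold difference (66.7 to 92.6). The gap between the clusters rests on Mir200c, since Mir141 alone had the smallest ratio of the 5.

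The makeup of the family therefore differed between the libraries, a comparison that needs no scaling between them. Mir200c took 76.4% of the family's counts in replicate 2 (75.5 to 77.4) and 41.9% in replicate 1 (36.2 to 47.8). Mir200b took 11.6% in replicate 2 (10.9 to 12.4) and 29.2% in replicate 1 (24.0 to 34.8). Mir429 took 5.37% in replicate 2 and 13.1% in replicate 1, Mir141 took 3.74% and 10.3%, and Mir200a took 2.81% and 5.50%, in the same order. The seed group of Mir200b, Mir429 and Mir200c made up 93.4% of the family in replicate 2 (92.9 to 94.0) and 84.2% in replicate 1 (79.5 to 88.2). That group includes Mir200c, and the other 4 members had overlapping intervals of the ratio between libraries across both seed groups. The intervals of Mir200a, 2.45% to 3.21% in replicate 2 and 3.18% to 8.78% in replicate 1, overlap, and those of the other 4 members do not. Shares are parts of 1 total, so a larger share of Mir200c lowers the rest, and these 4 are not separate differences. With 1 library on each side, none of these differences could be set against a spread between replicates.

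**Figure D4:**
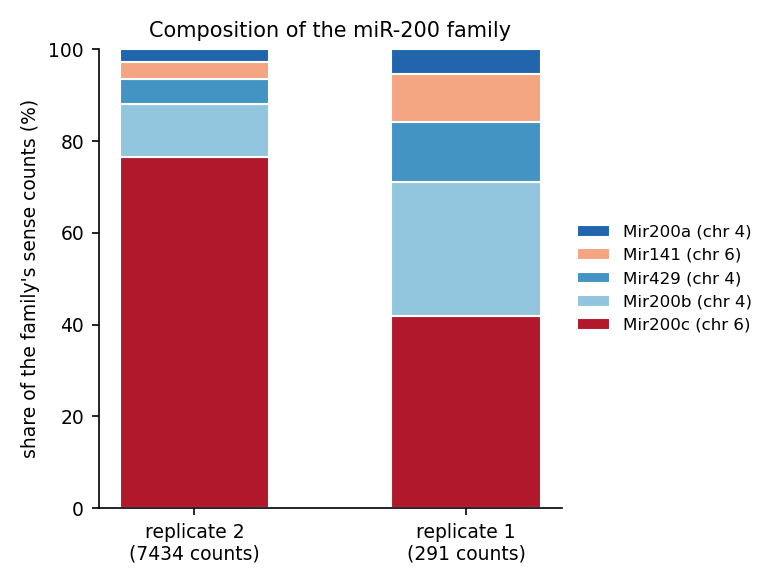
Share of each member in the family's sense counts (%) in replicate 2 (left bar, 7434 counts) and replicate 1 (right bar, 291 counts), with reds for chromosome 6 and blues for chromosome 4. Mir200c fills 76.4% of the left bar and 41.9% of the right bar.

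Ratios within the chromosome 4 cluster did not differ between the libraries beyond counting error, whereas the ratio within the chromosome 6 cluster did. Mir200b exceeded Mir429 2.17-fold in replicate 2 (1.92 to 2.45) and 2.24-fold in replicate 1 (1.51 to 3.37). Mir200b exceeded Mir200a 4.14-fold in replicate 2 (3.55 to 4.84) and 5.31-fold in replicate 1 (3.09 to 9.71). Mir429 exceeded Mir200a 1.91-fold in replicate 2 (1.61 to 2.27) and 2.38-fold in replicate 1 (1.29 to 4.56). Mir141 stood at 0.189 of the chromosome 4 cluster in replicate 2 (0.165 to 0.215) and at 0.216 in replicate 1 (0.140 to 0.322). Each of these pairs of intervals overlaps, but those of Mir200a in replicate 1 rest on 16 counts and are too wide to show that the ratios are equal. Mir200c exceeded Mir141 20.4-fold in replicate 2 (18.1 to 23.1) and 4.07-fold in replicate 1 (2.71 to 6.28), and these intervals do not overlap.

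Mir200c and Mir141, whose hairpins are known to be cut from 1 primary transcript, thus differed from each other by 2.33 in log2 ratio. Among 115 pairs of adjacent genes on 1 strand within 10 kb, the median difference of this kind was 0.80, with quartiles of 0.41 and 1.42. The difference between Mir200c and Mir141 was reached or passed by 6 of the 115 pairs, itself included. Mir429 and Mir200a differed by 0.32 and Mir200a and Mir200b by 0.36, both below the lower quartile. The hairpins of the divergent pair are shown from RefSeq with their mature strands in capitals, 5p before 3p.

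Mir200c: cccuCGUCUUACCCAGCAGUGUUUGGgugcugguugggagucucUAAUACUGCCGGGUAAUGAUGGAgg

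Mir141: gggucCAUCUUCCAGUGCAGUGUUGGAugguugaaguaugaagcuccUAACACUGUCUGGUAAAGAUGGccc

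The counts refer to whole hairpin genes, so the arms were not told apart. Hairpin GC content was 55.1% for Mir200c, the highest of the family, and 49.4% for Mir429, the lowest, against a median of 50.5% over the 368 genes. Mir141 lay between them, just below that median. A line fitted on GC content over those genes had a slope of 0.15 in log2 ratio per 10 percentage points. With the effect of GC content taken relative to the median gene, an alternative added after seeing the data, the log2 ratio of Mir200c was 6.47 and that of Mir141 4.22.

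The 3 chromosome 4 members differed between the libraries by 20.3- to 26.1-fold with overlapping intervals, and their annotated transcript Gm13648 starts 4052 bases upstream of Mir200b. Its RefSeq window of 300 bases, chr4:156059753-156060052 on the minus strand of GRCm38.p6, is shown because Zeb factors are known to bind the letters CACCTG, or CAGGTG on the other strand. Capitals mark these letters, which occur at 2 places that do not overlap.

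Gm13648: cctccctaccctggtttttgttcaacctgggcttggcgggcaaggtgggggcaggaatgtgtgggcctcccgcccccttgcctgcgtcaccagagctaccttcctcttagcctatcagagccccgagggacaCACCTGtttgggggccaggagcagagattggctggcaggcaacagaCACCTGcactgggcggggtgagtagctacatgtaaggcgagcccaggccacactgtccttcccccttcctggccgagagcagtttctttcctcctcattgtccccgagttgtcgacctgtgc

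Of all 32851 windows in that table, 20.2% hold these letters at least at 1 place on either strand. The match is a description of the sequence, and binding was not measured. The Ttll10 window of the same table, at 156050768 to 156051067 on chromosome 4, holds neither form of these letters. It is not shown because it lies downstream of all 3 hairpins, so the transcript it belongs to does not contain them, although other annotated Ttll10 transcripts start 3664 bases upstream of Mir200b.

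Markers of other cell types moved with the family in part. The pancreas acinar genes Mir217, Mir216b and Mir216a had 530, 91 and 56 counts in replicate 2 and 0 counts each in replicate 1. Summed over the list they made 326 CPM in replicate 2, which is at least 451-fold higher than 3 counts, the floor taken for the whole list, would be in replicate 1. Taken singly against 3 counts, Mir217 was at least 353-fold higher in replicate 2, Mir216b at least 60.6-fold and Mir216a at least 37.3-fold. Outside the lists, Mir6969 had 89 counts in replicate 2 and 0 in replicate 1, at least 59.2-fold higher, and Mir802 had 344 counts in replicate 2 and 1 in replicate 1. Mir802 was named after its values were seen. Of these 5 genes, the bounds of Mir216b, Mir6969 and Mir216a lie below the ratio of Mir200c, so their order relative to it is not known. In replicate 2 the miR-200 family held 3576 CPM against these 326 CPM. Of the neuroendocrine and islet list, none of 4 genes was past 4-fold, and its sum was 54157 CPM in replicate 2 and 48802 CPM in replicate 1. Mir375 alone held 51780 and 44147 CPM of these sums, so a small contribution from another tissue could not show in them. Mir7b, Mir7-1 and Mir7-2 were lower in replicate 2, at 2129, 165 and 83.2 CPM, than in replicate 1, at 4326, 233 and 96.3 CPM. The part of pancreas tissue, or of any other tissue, in the family's level was not tested.

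The other epithelial lists did not share the family's difference as a whole. In the squamous list 1 of 3 genes was past 4-fold, Mir31, with 1391 CPM in replicate 2 and 109 CPM in replicate 1, while Mir203 had 1232 and 1551 CPM and Mir205 had 9.62 and 3.11 CPM. None of the 3 genes of the miR-183 cluster was past it, and their sum was 624 CPM in replicate 2 and 852 CPM in replicate 1. The kidney and gut list held 322 CPM in replicate 2 and 136 CPM in replicate 1, with none of its 4 measured genes past 4-fold. Mir204 had 207 and 57.0 CPM, Mir192 had 56.3 and 42.3 CPM, Mir194-2 had 56.3 and 30.7 CPM and Mir215 had 2.41 and 4.89 CPM, in replicates 2 and 1, while the fifth listed gene, Mir194-1, had 0 and 6 counts. The multiciliated list held 2169 CPM in replicate 2 and 750.4 CPM in replicate 1, mostly Mir34c at 2029 and 605 CPM, again with none of 3 measured genes past 4-fold.

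Among genes with at least 20 counts, the lists of liver, endothelium, smooth muscle, fibroblasts and leukocytes held none past 4-fold. Their sums ranged from 1525 CPM for fibroblasts to 64797 CPM for endothelium in replicate 2, and from 1215 to 74842 CPM for the same lists in replicate 1. In the brown fat list 2 of 4 genes were past it toward replicate 2, Mir193b at 3032 and 256 CPM and Mir365-1 at 13.5 and 2.00 CPM in replicates 2 and 1. Short of it were Mir378a, most of the list's sum, at 94372.6 and 53936.5 CPM, and Mir365-2 at 20.7 and 9.12 CPM. Over all 368 genes, 6.52% were past 4-fold toward replicate 2. In the erythroid list 2 of 3 genes were past it toward replicate 1, Mir451a at 903 and 14362 CPM and Mir144 at 153 and 1441 CPM. The third, Mir486, had 35.1 and 38.7 CPM. No listed microRNA defines the adrenal gland by itself, so the labelled tissue could not be checked from these genes.

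**Figure D5:**
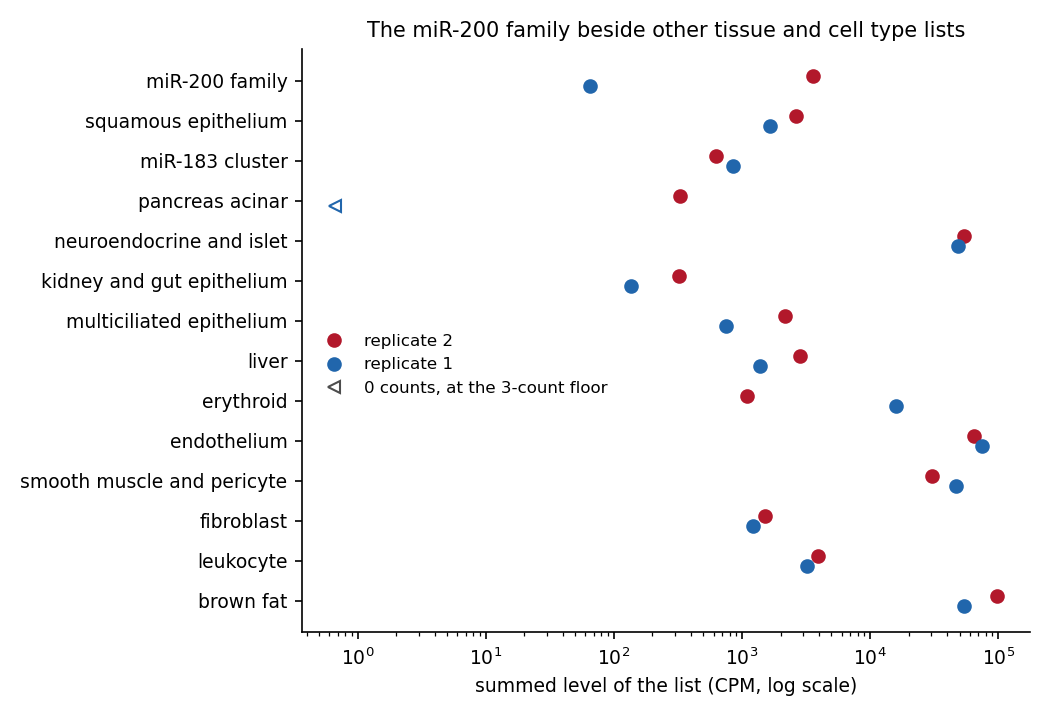
Summed level of each list in CPM (log scale) in replicate 2 (red) and replicate 1 (blue), with the open triangle marking 0 counts at the floor of 3 counts. The miR-200 family spans 3576 and 64.7 CPM, whereas the squamous, kidney and gut, and multiciliated lists differ by less than 4-fold.

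Among genes outside the family with at least 20 counts in total and counts in both libraries, none lay within 2.11 log2 units of the summed family. Genes with fewer counts were left out, and some of them lie closer, such as Mir6943, with 14 and 1 counts and a log2 ratio of 4.81. With at least 20 counts in total and 0.5 counts added for genes at 0, the 5 nearest were Mir31, Mir216a, Mir30b, Mir193b and Mir6969. Mir30b, of the broadly expressed miR-30 family, had 3571 CPM in replicate 2 and 290 CPM in replicate 1, a log2 ratio of 3.51. Mir31 had a log2 ratio of 3.56 and Mir193b of 3.45, below all 5 members. The place of Mir216a and Mir6969 in that order rests on the added counts, since both had 0 counts in replicate 1, and against 3 counts their log2 ratios are at least 5.22 and 5.89. This likeness rests on a single ratio between 2 libraries and on its direction. Toward replicate 1, Mir301 differed by a similar size, with 48 counts in replicate 2, 5365 in replicate 1 and a log2 ratio of -5.81.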

How the data were processed

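The deposited files give raw read counts per microRNA gene, 1 file per library, in a strand-blind column and 1 column per strand. Per the file headers of the deposited text, the assembly was mm10 and the annotation GENCODE M21. Neither the aligner nor the counting program is named in those sources. Of the strand columns, the one that held more gene counts, the same in each library, was used as sense. Unmapped reads, reads placed at several sites, reads outside genes and ambiguous reads belong to no gene row and stayed out of library sizes (51.9%, 21.5%, 6.46% and 0% of reads in replicate 2, and 26.4%, 29.8%, 7.16% and 0% in replicate 1).

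CPM is a gene's sense counts per 1000000 over all gene rows. Ratios used TMM factors from edgeR 4.0.16, over genes with at least 20 counts in total, and 0.5 counts were added to both libraries only for genes at 0 in one. With 1 group of 2 libraries no test between conditions was possible. Past 4-fold refers to the ratio itself. Alternatives changed the scaling (library size, DESeq2 1.42.0), filter, fold, column, denominator, pseudocount, neighbour distance and library. The members and lists were chosen with earlier results of these data known. Named besides the members and list genes are the neighbours in mean level and the 5 genes nearest in ratio among those with at least 20 counts. Outside that rule Mir802, Mir6943 and Mir301 were named after their values were seen. The ratio step was tested on simulated data with counting noise only, so that test cannot speak to the spread between real libraries. Other software was matplotlib 3.10.9, SciPy 1.17.1, pandas 2.3.3 and NumPy 2.4.6 under Python 3.11.15, with R 4.3.3. Sequences come from RefSeq tables on GRCm38.p6, in which all 5 hairpins had the same coordinates as in GENCODE M21. Whether CAST/EiJ alleles changed how reads mapped was not tested.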

Additional observations from a re-analysis of the deposited data

How the results depend on the processing

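All 5 members were past 4-fold toward replicate 2 under each of the 10 other settings of scaling, filter, fold, column and base composition. The log2 ratio of the summed family ranged from 5.42 to 5.79, and the lowest value, 5.42, lay outside its counting interval. It came from subtracting a line fitted on hairpin GC content, added after seeing the data, whose height of 0.20 at the median GC content lowers all genes alike. With that height left in, also added after seeing the data, the family stood at 5.62 and Mir200c at 6.47, inside their intervals. Of 30 recomputed ratios of single members all kept their direction, and 1, Mir200c at 6.27 with the whole line subtracted, lay outside its interval. The number of genes past the fold, 38 either way and 24 toward replicate 2, depended on the settings. It was 20 and 15 of 333 genes with at least 10 counts in each library. With no count filter it was 154 and 91 of 749 genes. Of the main 368 genes it was 121 and 68 at 2-fold and 18 and 13 at 8-fold. With at least 100 counts over both libraries it was 23 of 284 genes either way. The shares either way were 6.0%, 20.6%, 32.9%, 4.9% and 8.1% in that order, against 10.3% in the main setting. These settings change how many genes are counted by construction.

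With 1 library left out, the family's level was 64.7 to 3576 CPM, the share of Mir200c 41.9% to 76.4% and that of the chromosome 6 cluster 52.2% to 80.2%, so each of the levels depends on which library is used. Per 1000000 reads of the library the family's mean was 372, and in the strand-blind column it was 2257 CPM. The median difference between adjacent genes was 0.64 to 0.80 over its 4 settings. Among 97 pairs of genes with at least 100 counts, 3 differed at least as much as Mir200c and Mir141, that pair itself included. Replicate 1 held 16 to 122 counts per member, which limits the precision of every ratio. No paired analysis was possible because the series has 1 group.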
